A study of Mus musculus with 24 samples.

Results

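The genes described here are 10 transcription factor genes that are known for specifying or maintaining brown fat cells: Ebf2, Prdm16, Zfp516, Nfia, Irf4, Cebpa, Cebpb, Zic1, Lhx8 and Tbx15. They were chosen by name, and all 10 were present in each of the 5 tables deposited by the authors, among 13162 genes listed in any table. RNA of interscapular brown fat, the heat-producing depot between the shoulder blades, was sequenced in male mice on a C57BL/6J background, aged 10 to 12 weeks and killed at Zeitgeber time 10 of a 12-hour light cycle. Every mouse carried Hdac3 alleles flanked by loxP sites. The KO groups also carried Ucp1-cre, which deletes Hdac3, the gene of a histone deacetylase, in cells that use the Ucp1 promoter and leaves it in the other cells of the tissue. The Control groups carried the floxed alleles without Ucp1-cre. Each genotype was sampled in mice kept at 22 °C, in mice returned to 22 °C for 24 h after 24 h at 15 °C (24 h recovery), and in mice returned for 7 d after the same cold period (7 d recovery). Each of the 6 groups held 4 libraries. The labels call them biological replicates but do not tie each library to a mouse, and the spread behind each p-value may therefore be partly technical.

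Brown fat cells arise from precursors that choose between a brown fat, a muscle and a white fat fate, and transcription factors set that choice. EBF2 opens chromatin at brown fat genes, PRDM16 is a coregulator that favours the brown over the muscle and white programme, ZFP516 binds the Ucp1 promoter, and NFIA acts with EBF2 on brown fat enhancers. IRF4 works with PGC-1α to switch on heat-producing genes after fasting or cold. C/EBPα and C/EBPβ, leucine zipper factors of all fat cells, drive the fat cell programme, and C/EBPβ is also a partner of PRDM16. Zic1, Lhx8 and Tbx15 are known as developmental or depot markers of classical brown fat.

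The deposited tables give, for each gene, the authors' edgeR log2 fold change, its adjusted p-value and the mean of each group in RPKM, reads scaled to transcript length and library size and thus a level per length. No value per library was given, so group means stand without a spread. A gene is called changed where the authors' adjusted p was under 0.05. The SE beside a fold change was rebuilt from the deposited p-value, as the log2 fold change over its normal score. Library sizes, worked out from the steps between low deposited means, ran between 4637903 and 12538811 reads (8390846 ± 1903543 reads, SD, n = 24). Hdac3 itself averaged 8.57, 6.43 and 7.43 RPKM in KO fat at 22 °C, 24 h and 7 d, against 26.1, 27.1 and 25.4 RPKM in Control fat, in the deposited tables. It was thus 2.59, 3.82 and 3.26-fold lower in KO fat at these times (adjusted p = 9.9e-21, 4.6e-37 and 6.4e-29 in the authors' deposited edgeR tables). In whole tissue, fewer cells of a type and less RNA per cell cannot be told apart.

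Promoter windows from RefSeq (mouse build GRCm38.p6, 250 bases before to 50 bases after the transcription start) were on hand for 7 of the 10 genes. Those of Irf4, Cebpa and Cebpb are printed because these genes show the called changes that the results turn on and because they alone among the 7 windows held the letters TATAAA. The search for TATAAA was added after the sequences had been seen. All 3 lie on the plus strand, at chr13:30748983-30749282 for Irf4, chr7:35119043-35119342 for Cebpa and chr2:167688665-167688964 for Cebpb. The deposited tables use an older build, mm9, and no coordinate of theirs is used. Capitals mark matches of TATAAA and of CANNTG, an E-box core of bHLH factors in which N is any base.
Irf4 promoter: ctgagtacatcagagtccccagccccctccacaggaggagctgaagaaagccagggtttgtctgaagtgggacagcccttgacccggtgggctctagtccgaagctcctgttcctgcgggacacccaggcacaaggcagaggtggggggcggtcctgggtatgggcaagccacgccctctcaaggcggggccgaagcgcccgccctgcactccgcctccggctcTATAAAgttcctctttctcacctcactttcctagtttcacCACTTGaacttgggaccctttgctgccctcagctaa
Cebpa promoter: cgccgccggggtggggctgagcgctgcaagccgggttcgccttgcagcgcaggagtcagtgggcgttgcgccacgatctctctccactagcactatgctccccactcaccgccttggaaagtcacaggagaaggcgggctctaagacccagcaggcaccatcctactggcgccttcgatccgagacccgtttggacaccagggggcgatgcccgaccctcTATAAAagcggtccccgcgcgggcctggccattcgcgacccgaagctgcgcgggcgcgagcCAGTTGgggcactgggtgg
Cebpb promoter: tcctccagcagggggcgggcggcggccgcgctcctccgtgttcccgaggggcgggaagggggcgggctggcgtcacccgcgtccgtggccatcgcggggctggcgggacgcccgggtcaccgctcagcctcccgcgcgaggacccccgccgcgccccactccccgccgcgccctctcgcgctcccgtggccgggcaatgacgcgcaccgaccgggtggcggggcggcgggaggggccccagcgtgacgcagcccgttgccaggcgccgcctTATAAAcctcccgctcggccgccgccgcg
TATAAA began 26 bases before the start in the Irf4 window and 30 bases before it in the Cebpa window, the usual place of a TATA box. In the Cebpb window it began at base 22 of the transcript. Over both strands, 13.6% of all 32851 windows of this length held TATAAA, and the share for CANNTG was 72.3%. The motifs CCAAT (37.4% of windows), TTGCNNAA (10.8%), TGACGTCA (1.79%) and TGACCT (16.3%) had no match in these 3 windows. These matches describe letters and show no binding.

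In KO fat kept at 22 °C, the 10 genes did not move as a block: Irf4 and Cebpa were higher than in Control fat, Ebf2 was lower, and the other 7 did not pass the test. These 3 of 10 genes compare with 34.3% of all 12710 genes called in that deposited table (16.3% higher, the others lower). At 24 h of recovery Cebpa was higher and Ebf2 lower in KO fat, 2 of 10 genes against 18.5% of all genes (10.5% higher and 7.96% lower). At 7 d Cebpa and Cebpb were higher and Ebf2 lower, 3 of 10 genes against 15.3% of all genes (9.18% higher and 6.14% lower). Between 24 h of recovery and 22 °C, KO fat had 4 of 10 genes called (Cebpb and Ebf2 higher, Irf4 and Lhx8 lower) against 41.9% of all genes (22.1% higher and 19.8% lower). The tables' own status column, which asks for an adjusted p under 0.01 and at least 1.5-fold, called 2 of 10 (Irf4 and Cebpb) in KO recovery against 26.1% of all genes. Control fat had 1 of 10 genes called (Cebpa lower) against 21.8% of all genes (13.1% higher and 8.67% lower). The members' share of calls was therefore near the share of all genes in the KO against Control tables at 22 °C and 24 h and in the KO recovery table. Over the 50 gene and table pairs there were 13 calls, and 5 genes (Prdm16, Zfp516, Nfia, Zic1 and Tbx15) had none. The tables share groups with each other, so calls in several tables are not independent.

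**Figure D1:**
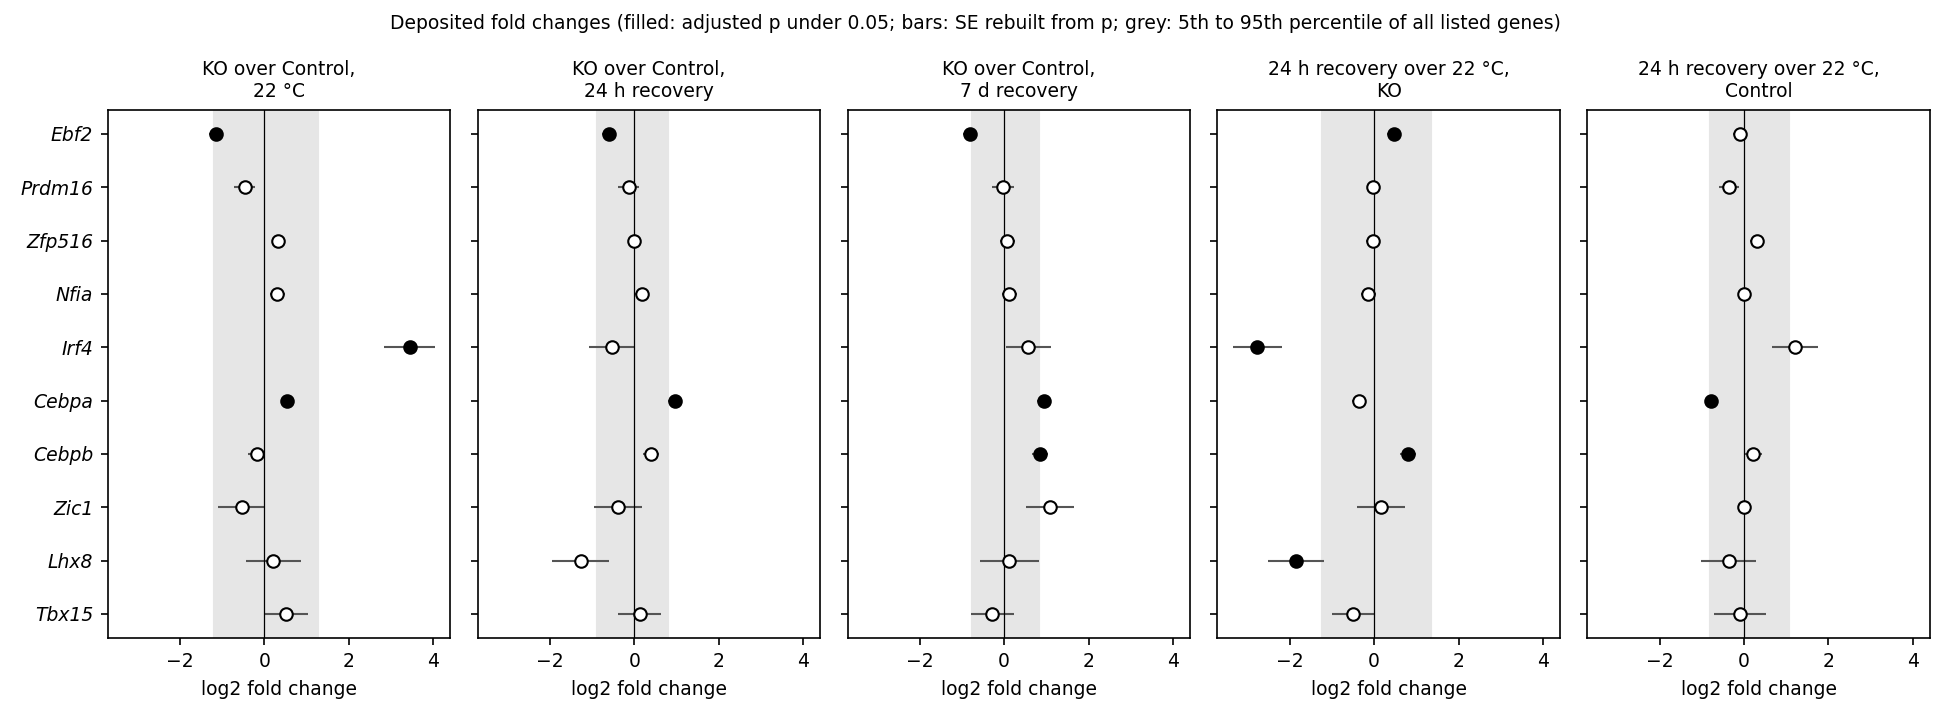
Deposited log2 fold changes of the 10 genes (rows) in the 5 tables (panels, log2 scale on the horizontal axis), with filled points for adjusted p under 0.05, bars for the SE rebuilt from p and a grey band from the 5th to the 95th percentile of all listed genes. Irf4 stands far right at 22 °C (3.44) and far left in KO recovery (-2.76), Ebf2 lies left of 0 and Cebpa right of 0 in all 3 KO over Control panels.

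By level per transcript length, Cebpa led the set, with group means between 83.0 and 199.1 RPKM in the deposited tables. Cebpb (28.8 to 53.3 RPKM), Irf4 (5.57 to 51.5), Nfia (9.02 to 10.2) and Ebf2 (4.88 to 14.0) followed, while Prdm16, Zfp516, Lhx8, Tbx15 and Zic1 stayed below 3.5 RPKM in every group. Their evidence differed accordingly: Cebpa averaged about 1635 to 4863 reads per library, and Lhx8 as few as 9.77 reads per library in KO fat at 24 h. Irf4 varied most between the 6 groups, its highest deposited mean being 9.25 times the lowest. This ratio was 3.54 for Lhx8, 2.87 for Ebf2, 2.40 for Cebpa, 2.17 for Zic1 and 1.13 for Nfia, the steadiest of the set. How these means vary between libraries is unknown, so the order of neighbouring groups within a gene is a description.

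**Figure D2:**
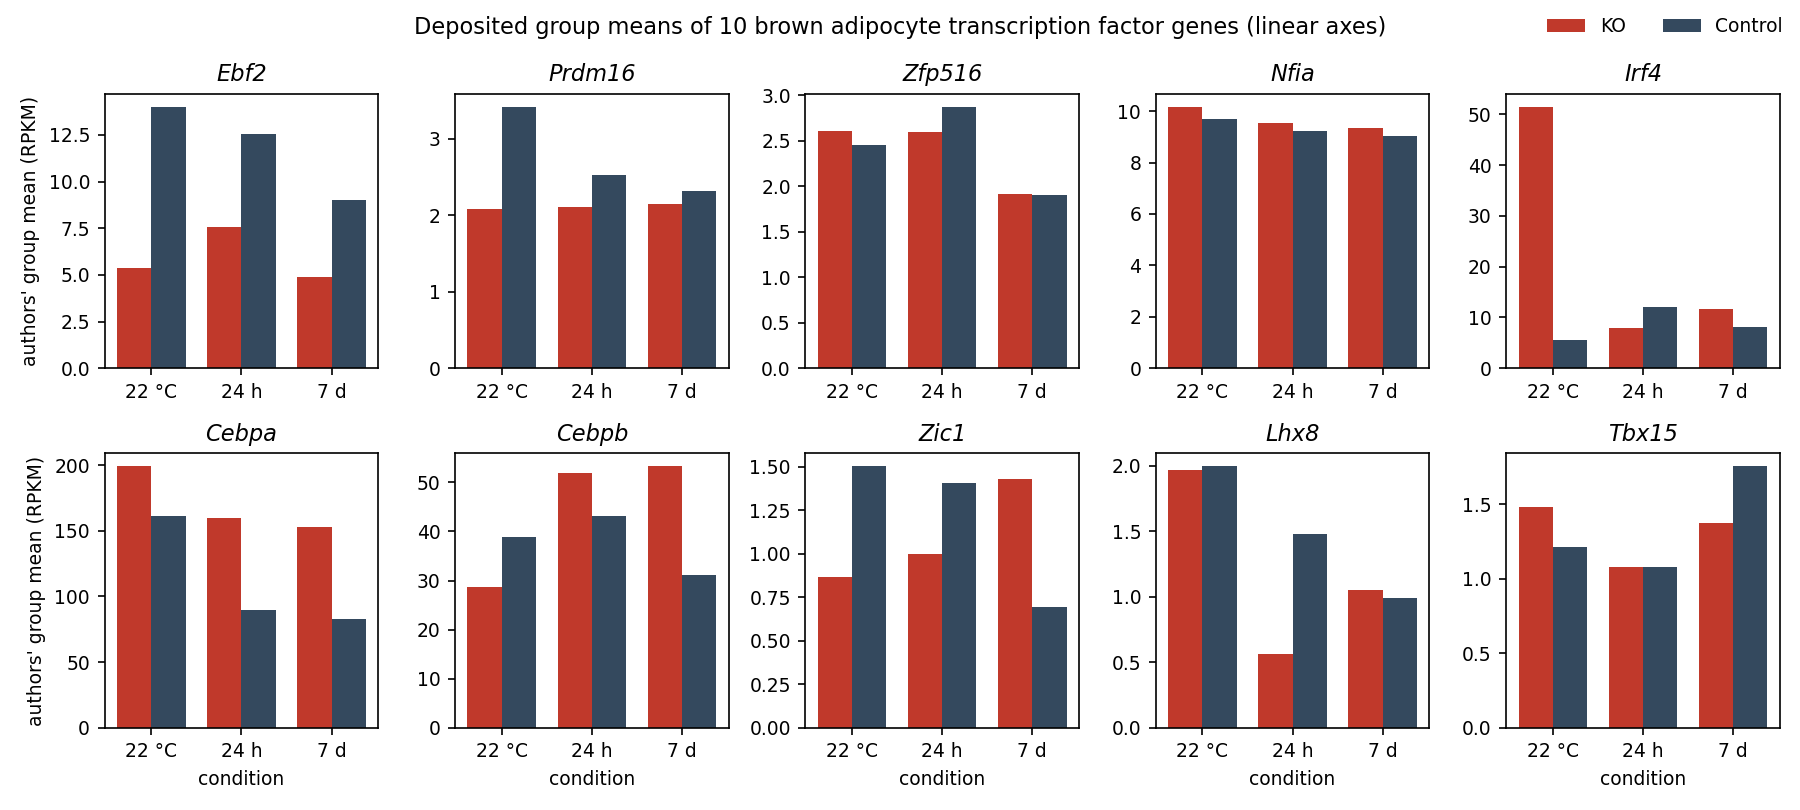
Deposited group means in RPKM (vertical axes, linear and starting at 0, a scale of its own for each gene) at 22 °C, 24 h and 7 d of recovery, with KO in red and Control in blue; the deposited tables give no error for a mean. The KO bar of Irf4 at 22 °C (51.5 RPKM) exceeds its other 5 bars, the KO bars of Ebf2 are below the Control bars at all 3 times, and those of Cebpa are above them.

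Ebf2, which encodes a factor that marks brown fat precursors and keeps the programme in mature cells, was the most persistently lower gene of the set in KO fat. Its deposited means were 5.37, 7.57 and 4.88 RPKM in KO fat at 22 °C, 24 h and 7 d, against 14.0, 12.5 and 9.01 RPKM in Control fat. Each KO mean was below each Control mean. The deposited log2 fold change was -1.15 ± 0.16 at 22 °C (2.22-fold lower, adjusted p = 2.8e-11), -0.60 ± 0.16 at 24 h (1.51-fold lower, adjusted p = 0.0024) and -0.82 ± 0.16 at 7 d (1.76-fold lower, adjusted p = 2.8e-05). Within KO fat, Ebf2 was 1.38-fold higher at 24 h of recovery than at 22 °C (log2 0.46 ± 0.16, adjusted p = 0.0151 in the authors' deposited edgeR table). This KO recovery call was lost at an adjusted p of 0.01 or a minimum fold of 1.5. In Control fat the same comparison gave log2 -0.09 (adjusted p = 0.764). Exons of Ebf2 overlap those of Gm10860 on the opposite strand over 424 of 5680 bases in GENCODE, and reads of the pair cannot be told apart, because the strand setting of the counting is not stated.

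Ebf1 and Ebf3, close relatives that are abundant in fat precursors of every kind, were not called in the KO against Control tables, and whether they differed from Ebf2 was not tested. Ebf1 averaged 17.3, 13.1 and 13.2 RPKM in KO fat at 22 °C, 24 h and 7 d, against 18.4, 16.6 and 13.4 RPKM in Control fat in the deposited tables, with adjusted p of 0.541, 0.450 and 0.954. Ebf3 had log2 fold changes of 0.43, -0.02 and 0.08 (adjusted p = 0.0702, 0.998 and 0.890 in the authors' deposited edgeR tables). Within KO fat, Ebf1 was 1.35-fold lower at 24 h of recovery than at 22 °C (log2 -0.43 ± 0.16, adjusted p = 0.0194). Ebf3 was not called there (adjusted p = 0.0727 in the authors' deposited edgeR table). Of 13 preadipocyte markers with a value, 2 were higher and 0 lower in KO fat at 22 °C, 0 higher and 6 lower at 24 h, and 0 higher and 1 lower at 7 d in the deposited tables. Their summed deposited means were 297.0, 280.2 and 281.5 RPKM in KO fat and 270.5, 476.4 and 415.3 RPKM in Control fat at 22 °C, 24 h and 7 d, and Dlk1 had no value here. In recovery at 24 h against 22 °C, 1 was higher and 4 lower in KO fat, and 4 were higher and 0 lower in Control fat, in the deposited tables. At 22 °C the higher sum in KO fat rested on Dpt, which averaged 92.1 RPKM in KO and 28.8 RPKM in Control fat in the deposited table and is also in the white fat list. Without Dpt the other 12 markers summed to 204.9, 242.8 and 259.9 RPKM in KO fat at 22 °C, 24 h and 7 d, against 241.7, 448.7 and 391.8 RPKM in Control fat, from the deposited means. This sum of means was thus lower in KO fat at all 3 times. The means leave out the authors' normalization factors, which shifts a ratio of means by a median of -0.24 at 22 °C. By deposited log2 fold change of KO over Control, the 13 markers had a median of 0.11 at 22 °C, -0.40 at 24 h and -0.27 at 7 d. The part of precursor cells in the Ebf2 values was not tested.

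Irf4, the immune and fat cell factor that carries cold and fasting signals to heat-producing genes, showed the widest swing. In the deposited tables it averaged 51.5, 7.84 and 11.6 RPKM in KO fat at 22 °C, 24 h and 7 d, against 5.57, 12.1 and 8.12 RPKM in Control fat. The KO mean at 22 °C was the highest of the 6 and the Control mean at 22 °C the lowest. KO fat at 22 °C had 10.8-fold more Irf4 than Control fat (log2 3.44 ± 0.59, adjusted p = 8.6e-08 in the authors' deposited edgeR table), the 32nd highest fold change of 12710 genes. Its SE was wide for its depth of about 191 to 2231 reads per library, since Nfia had an SE of 0.18 at 22 °C with 683 to 908 reads. After recovery the genotypes were not called different. The deposited log2 fold change of KO over Control was -0.53 ± 0.54 at 24 h (adjusted p = 0.583) and 0.57 ± 0.54 at 7 d (adjusted p = 0.580). Within KO fat, Irf4 was 6.80-fold lower at 24 h of recovery than at 22 °C (log2 -2.76 ± 0.58, adjusted p = 1.1e-05), the 78th lowest of 12577 genes in the deposited table. In Control fat the estimate was 2.31-fold higher at 24 h and missed the threshold (log2 1.21 ± 0.55, adjusted p = 0.104 in the authors' deposited edgeR table).

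Lymphocytes, dendritic cells and macrophages also use Irf4, so their markers were set beside it. Of 14 lymphoid and dendritic markers, 8 had no value here, among them the B cell genes Cd79a and Ms4a1 and the T cell genes Cd3d, Cd4 and Cd8a, in tables that list a gene only at 0.5 RPKM or more in the higher group. Of the other 6, the 4 with a value in every group summed to 11.4, 6.76 and 8.28 RPKM in KO fat at 22 °C, 24 h and 7 d, against 10.6, 8.06 and 7.16 RPKM in Control fat in the deposited tables. At 22 °C 2 of the 6 were higher and 0 lower in KO fat, Itgax (3.17-fold) and the T cell gene Cd3e (4.30-fold). Cd3e is not in this sum and was low, at 0.548 RPKM in KO and 0.139 RPKM in Control fat at 22 °C. The 14 macrophage markers summed to 177.2, 210.2 and 143.0 RPKM in KO fat and to 143.5, 353.9 and 174.1 RPKM in Control fat at the same times, from the deposited means. Of them 2 were higher and 0 lower in KO fat at 22 °C, 0 higher and 1 lower at 24 h, and none was called at 7 d in the deposited tables. In recovery at 24 h against 22 °C, 0 of them were higher and 1 lower in KO fat, whereas 11 were higher and 0 lower in Control fat, in the deposited tables. Of the 6 lymphoid and dendritic markers, 0 were higher and 2 lower in KO recovery, Cd3e (3.79-fold) and Igj (3.57-fold). In Control recovery 1 of the 5 listed was higher, Itgax (2.65-fold), and 0 were lower. The Irf4 mean was higher in KO than in Control fat at 22 °C and 7 d and lower at 24 h. The macrophage sum was higher in KO fat at 22 °C and lower at 24 h and 7 d. The part of these cells in the Irf4 values was not tested.

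Other interferon regulatory factor genes were called in the same direction as Irf4 at 22 °C. In the deposited tables Irf1 averaged 20.6 RPKM in KO and 11.1 RPKM in Control fat at 22 °C, 2.17-fold higher (adjusted p = 2.4e-05). Irf2 averaged 5.39 RPKM in KO and 2.90 RPKM in Control fat, 2.20-fold higher (adjusted p = 1.1e-05), and Irf7 was 1.92-fold higher (adjusted p = 0.0293). Like Irf4, both Irf1 (1.86-fold, adjusted p = 7.6e-04) and Irf2 (2.39-fold, adjusted p = 9.5e-07) were lower in KO fat at 24 h of recovery than at 22 °C in the authors' deposited edgeR table. Irf3 (adjusted p = 0.237), Irf5, Irf8 and Irf9 were not called at 22 °C. Ppargc1a, the gene of IRF4's coactivator PGC-1α, moved the other way: it averaged 2.64, 7.07 and 3.73 RPKM in KO fat at 22 °C, 24 h and 7 d, against 8.59, 9.05 and 5.96 RPKM in Control fat. It was 2.72-fold lower in KO fat at 22 °C (adjusted p = 1.5e-04) and 2.58-fold higher in KO fat at 24 h than at 22 °C (adjusted p = 2.9e-04 in the authors' deposited edgeR tables). Ppargc1a was singled out after its values were seen.

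Cebpa, whose product sustains the mature fat cell programme, was higher in KO fat at every time. Its deposited means were 199.1, 159.5 and 152.7 RPKM in KO fat at 22 °C, 24 h and 7 d, against 161.3, 89.5 and 83.0 RPKM in Control fat. All means after cold were below the mean at 22 °C of the same genotype. The difference between genotypes was 1.46-fold at 22 °C (log2 0.55 ± 0.16, adjusted p = 0.0036), 1.95-fold at 24 h (log2 0.96 ± 0.16, adjusted p = 2.0e-07) and 1.93-fold at 7 d (log2 0.95 ± 0.16, adjusted p = 5.2e-07) in the authors' deposited edgeR tables. The 22 °C call was lost when at least a 1.5-fold difference was asked for. In KO fat Cebpa at 24 h of recovery against 22 °C gave log2 -0.35 ± 0.16 (adjusted p = 0.0701), whereas in Control fat it fell 1.71-fold (log2 -0.77 ± 0.16, adjusted p = 6.5e-05), in the authors' deposited edgeR tables. The difference between these 2 recoveries, which equals that between the genotype effects at 24 h and 22 °C, was not called (log2 0.42 ± 0.23, adjusted p = 0.219, normal score over all genes). Its exons overlap those of the opposite-strand gene Gm45091 over 51 of 2636 bases.

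Cebpb, an early factor of fat cell formation that also answers to cyclic AMP, had a different time course. It averaged 28.8, 51.9 and 53.3 RPKM in KO fat at 22 °C, 24 h and 7 d, against 38.9, 43.1 and 31.1 RPKM in Control fat in the deposited tables. KO fat was the lower of the pair at 22 °C and the higher at 24 h and 7 d by mean, and only the 7 d difference was called. The deposited log2 fold change of KO over Control was -0.18 ± 0.19 at 22 °C (adjusted p = 0.527), 0.40 ± 0.19 at 24 h (adjusted p = 0.142) and 0.85 ± 0.19 at 7 d (1.80-fold higher, adjusted p = 3.3e-04). Within KO fat Cebpb rose 1.75-fold between 22 °C and 24 h of recovery (log2 0.81 ± 0.19, adjusted p = 1.5e-04 in the authors' deposited edgeR table), and in Control fat the same estimate was 0.22 (adjusted p = 0.469). Among relatives, Cebpg, a partner for dimers, averaged 28.8 RPKM in KO and 18.8 RPKM in Control fat at 22 °C (1.80-fold higher, adjusted p = 1.2e-10) and was 1.35-fold higher at 7 d (adjusted p = 0.0054) in the deposited tables. Ddit3, a stress-induced member of the family, was 1.83-fold lower in KO fat at 22 °C (adjusted p = 0.0195) and 2.29-fold higher in KO fat at 24 h than at 22 °C (adjusted p = 5.9e-04) in the authors' deposited edgeR tables. Cebpd was not called in any deposited table.

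Prdm16, Zfp516 and Nfia, the remaining regulators of brown fat commitment, were called in no table. Prdm16 averaged 2.09, 2.10 and 2.15 RPKM in KO fat at 22 °C, 24 h and 7 d, against 3.42, 2.53 and 2.32 RPKM in Control fat in the deposited tables. The KO means were nearly level over time and each lay below each Control mean. These means leave out the authors' normalization factors. That shifts a ratio of KO over Control means by a median of -0.24 at 22 °C, -0.14 at 24 h and -0.06 at 7 d. The deposited log2 fold change of KO over Control was -0.46 ± 0.24 at 22 °C (adjusted p = 0.136), -0.14 at 24 h (adjusted p = 0.794) and -0.04 at 7 d (adjusted p = 1). The threshold was missed at each time, which does not show that the genotypes had the same level of Prdm16. The antisense gene B230104I21Rik shares 109 of the 8604 exon bases of Prdm16.

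Zfp516 averaged 2.60, 2.59 and 1.91 RPKM in KO fat at 22 °C, 24 h and 7 d, against 2.45, 2.87 and 1.90 RPKM in Control fat in the deposited tables. The values of the genotypes lay close to each other at each time, and the lowest mean of each genotype was the one at 7 d. Its deposited log2 fold changes of KO over Control were 0.33 ± 0.16 at 22 °C (adjusted p = 0.105), -0.00048 at 24 h (adjusted p = 1) and 0.07 at 7 d (adjusted p = 0.902). Nfia averaged 10.2, 9.54 and 9.32 RPKM in KO fat, against 9.68, 9.22 and 9.02 RPKM in Control fat at 22 °C, 24 h and 7 d in the deposited tables. With about 649 to 908 reads per library, Nfia was measured more deeply than Prdm16 (149 to 216 reads) and showed the narrowest range. The deposited adjusted p of Nfia for KO over Control was 0.186 at 22 °C, 0.579 at 24 h and 0.784 at 7 d.

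Among the other nuclear factor I genes, Nfix and Nfic were called at 22 °C and Nfib was not. Nfix averaged 7.06 RPKM in KO and 4.07 RPKM in Control fat (2.04-fold higher, adjusted p = 6.4e-09), and Nfic averaged 6.37 RPKM in KO and 4.07 RPKM in Control fat (1.85-fold higher, adjusted p = 6.5e-05) in the deposited tables. At 24 h and 7 d neither was called between genotypes, and in KO fat both were lower at 24 h of recovery than at 22 °C (Nfix 1.72-fold, Nfic 2.09-fold) in the deposited table. Nfib, the most abundant of this family per length, was not called between genotypes at any time (deposited adjusted p = 0.278, 0.190 and 0.854). The difference between family members was not itself tested.

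Zic1, Lhx8 and Tbx15, the developmental and depot markers, were the thinnest measured, and Lhx8 alone passed the test, in 1 table. Lhx8, a LIM homeobox gene, averaged 1.97, 0.564 and 1.05 RPKM in KO fat at 22 °C, 24 h and 7 d, against 2.0, 1.48 and 0.993 RPKM in Control fat in the deposited tables. The lowest mean, of KO fat at 24 h, rests on about 9.77 reads per library. It was 3.60-fold lower in KO fat at 24 h of recovery than at 22 °C (log2 -1.85 ± 0.67, adjusted p = 0.0165 in the authors' deposited edgeR table), a call that was lost at an adjusted p of 0.01. Between genotypes its log2 fold change was 0.21 ± 0.65 at 22 °C (adjusted p = 0.868), -1.27 ± 0.67 at 24 h (adjusted p = 0.198) and 0.13 at 7 d (adjusted p = 0.987) in the deposited tables. With errors of this size, a 2-fold change of Lhx8 lay within what the deposited p-values could miss. Zfpm1, a partner gene at or below 0.961 RPKM in every group, had an SE of 0.30 at 22 °C in the deposited table. Its length is 3386 bases against 1977 for Lhx8, so the same RPKM stands for more reads. What sets the errors of Lhx8 was not tested.

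Zic1, a zinc finger gene that marks classical brown fat cells, averaged 0.864, 0.997 and 1.43 RPKM in KO fat at 22 °C, 24 h and 7 d, against 1.5, 1.40 and 0.692 RPKM in Control fat in the deposited tables. The means ran up over the times in KO fat and down in Control fat, and at 7 d the KO mean was the higher of the pair. None of the differences was called: the deposited log2 fold change of KO over Control was -0.54 ± 0.56 at 22 °C (adjusted p = 0.520), -0.39 at 24 h (adjusted p = 0.740) and 1.09 ± 0.57 at 7 d (adjusted p = 0.209). Tbx15, a T-box gene of brown fat and of some muscle fibres, averaged 1.48, 1.08 and 1.37 RPKM in KO fat, against 1.21, 1.08 and 1.75 RPKM in Control fat at 22 °C, 24 h and 7 d in the deposited tables. Its deposited adjusted p for KO over Control was 0.473 at 22 °C, 0.944 at 24 h and 0.835 at 7 d. Zic1 and Tbx15 averaged about 17.3 to 48.9 reads per library.

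Whether the KO effect itself changed after cold was tested by the difference between KO over Control log2 fold changes in tables that share no library, with Benjamini-Hochberg adjustment over all genes. For Irf4 the KO effect at 24 h minus that at 22 °C was -3.97 ± 0.80 log2 units (adjusted p = 2.0e-05), and at 7 d the difference was -2.86 ± 0.80 (adjusted p = 0.0047). For Cebpb the KO effect at 7 d was above that at 22 °C by 1.03 ± 0.28 (adjusted p = 0.0026), and at 24 h the difference was 0.59 ± 0.27 (adjusted p = 0.126). No other member passed, which made 1 gene at 24 h against 18.2% of all genes, and 2 of 10 at 7 d against 14.8% of all genes. Ebf2 had differences of 0.55 ± 0.23 at 24 h (adjusted p = 0.0731) and 0.34 ± 0.23 at 7 d (adjusted p = 0.382). The Ebf2 value at 24 h did pass when a t distribution replaced the normal score (adjusted p = 0.0094). That setting also rebuilt each error from the t score, which makes the error smaller, so it is not a stricter test. Those of Cebpa were 0.42 ± 0.23 and 0.40 ± 0.23 (adjusted p = 0.219 and 0.266), those of Lhx8 -1.48 ± 0.93 and -0.09 (adjusted p = 0.294 and 0.970), and Zic1 had 1.62 ± 0.80 at 7 d (adjusted p = 0.171). For Zfp516 at 24 h these tables gave no error, because a deposited p was near 1, so 9 of the 10 genes were tested there. From the recovery tables of both genotypes the same difference of Zfp516 was -0.33 ± 0.22 (adjusted p = 0.330).

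**Figure D3:**
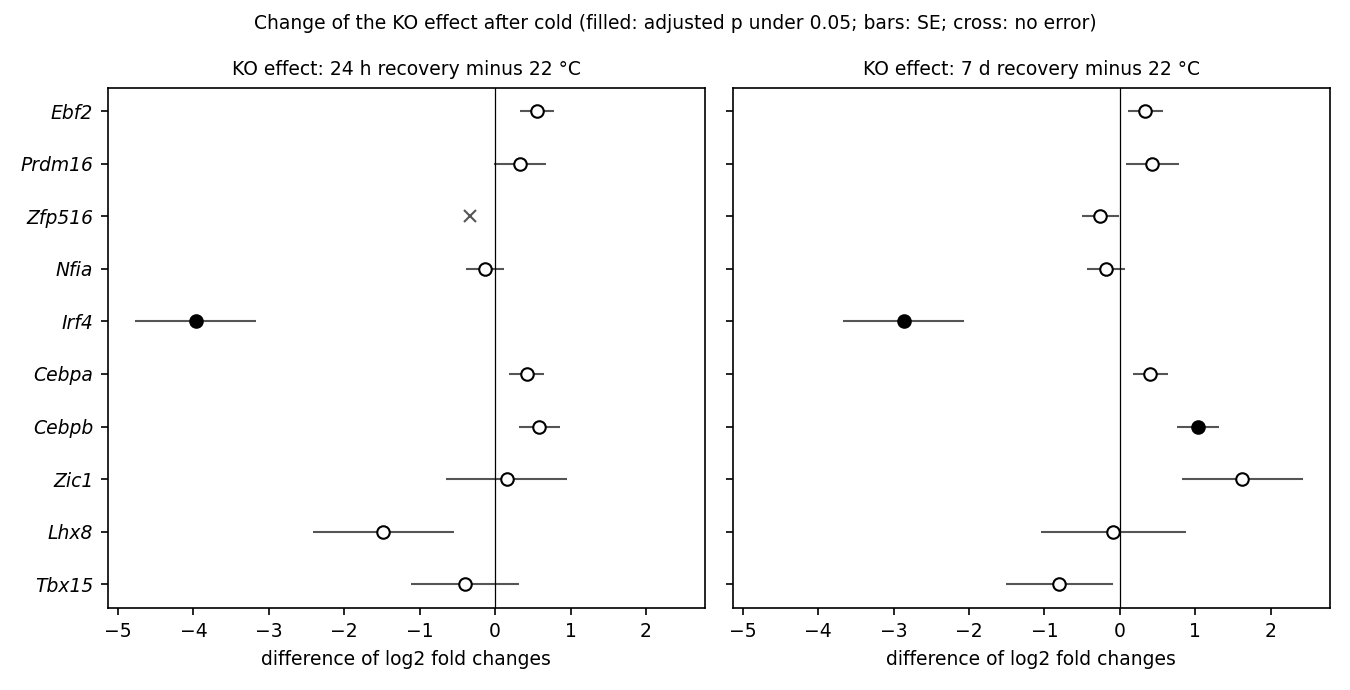
KO over Control log2 fold change after cold minus that at 22 °C (horizontal axis, log2 units) for the 10 genes, at 24 h (left) and 7 d (right), with SE bars; filled points passed an adjusted p of 0.05 over all genes and the cross marks the gene with no error. Irf4 lies at -3.97 and -2.86 and Cebpb at 1.03 on the right.

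No deposited table sets 7 d of recovery against 22 °C or 24 h within a genotype, so those levels are given as centred ratios of the deposited means, without a test. Between 7 d and 22 °C, Irf4 had a log2 ratio of -2.20 in KO fat and 0.66 in Control fat, and Cebpb had 0.84 in KO fat and -0.21 in Control fat. For Zic1 these ratios were 0.68 in KO and -1.01 in Control fat, with few reads behind them. Lhx8 had similar ratios in both genotypes, -0.95 in KO and -0.90 in Control fat. Cebpa was at -0.43 in KO and -0.84 in Control fat, so that both ratios of Cebpa were below 0 a week after the cold. Ebf2 was at -0.19 in KO and -0.52 in Control fat, while Nfia stayed near 0 in both (-0.18 and 0.01). Over the 10 genes the median was -0.18 in KO and -0.35 in Control fat.

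Partners of these factors (cofactors, nuclear receptors and chromatin proteins, 28 of 32 with a value in the 22 °C table) were called in both directions. In KO fat at 22 °C, 5 were higher and 8 lower, with a median log2 fold change of 0.11, against -0.01 over all genes. The lower ones included Esrrg (5.06-fold, 0.993 RPKM in KO and 5.95 RPKM in Control fat), Ppargc1b (2.83-fold) and Esrra (2.11-fold), nuclear receptor and coactivator genes of mitochondrial metabolism, and Smarcd3, a chromatin remodelling subunit (2.41-fold), in the deposited table. At 24 h 2 were higher and 3 lower, and at 7 d 3 were higher and 1 lower. At 7 d Klf15, a glucocorticoid-responsive factor, was 2.04-fold higher in KO fat (55.9 RPKM in KO and 28.6 RPKM in Control, adjusted p = 0.0017 in the authors' deposited edgeR table). Pparg, the receptor that organises all fat cell enhancers, was not called between genotypes at any time, at 157.8, 122.1 and 135.8 RPKM in KO fat and 169.2, 133.5 and 140.0 RPKM in Control fat at 22 °C, 24 h and 7 d in the deposited tables. Within KO fat at 24 h of recovery against 22 °C, 6 partners were higher, Esrrg (4.07-fold) and Ppargc1b (2.37-fold) among them, and 7 lower, Tle3 (2.67-fold) among them, in the deposited table. In Control fat 2 were higher and 3 lower. Of the other family members, 6 of 26 with a value were higher and 1 lower in KO fat at 22 °C, 0 higher and 1 lower of 27 at 24 h, and 3 higher and 0 lower of 25 at 7 d. In recovery at 24 h against 22 °C, 1 was higher and 8 lower in KO fat and 2 higher and 3 lower in Control fat, in the deposited tables. Beside the counts of both lists, the share of all genes called between genotypes was 34.3% at 22 °C, 18.5% at 24 h and 15.3% at 7 d. For 24 h of recovery against 22 °C it was 41.9% in KO and 21.8% in Control fat.

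Brown fat genes that these factors are known to control were called in large numbers. Of the 25 listed brown fat genes with a value, 3 were higher and 19 lower in KO fat at 22 °C (median log2 -1.49), 7 higher and 5 lower at 24 h (median 0.16), and 3 higher and 4 lower at 7 d (median 0.11) in the deposited tables. At 22 °C the respiratory subunit gene Cox7a1 averaged 56.4 RPKM in KO and 923.6 RPKM in Control fat (13.9-fold lower), and Cpt1b, which admits fatty acids to mitochondria, was 4.28-fold lower in the deposited table. In KO fat 20 of the 25 were higher and 2 lower at 24 h of recovery than at 22 °C (median 2.19), and in Control fat 11 were higher and 3 lower (median 0.25). Over all genes the share called in recovery was 41.9% in KO and 21.8% in Control fat. S100b, a secreted factor gene that supports sympathetic innervation, was like Ebf2 lower in KO fat at all 3 times in the deposited tables: 26.8-fold lower at 22 °C, 3.05-fold lower at 24 h and 4.54-fold lower at 7 d. Elovl3, a fatty acid elongase gene that brown fat induces in the cold, was instead higher in KO fat at all 3 times in the deposited tables: 9.50-fold at 22 °C (30.2 RPKM in KO and 3.57 RPKM in Control), 12.2-fold at 24 h (713.3 RPKM in KO and 64.4 RPKM in Control) and 7.32-fold at 7 d.

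Fat cell genes that C/EBP factors are known to drive were called mostly as higher in KO fat, as Cebpa was. Of the 20 C/EBP-driven genes, 13 were higher and 1 lower at 22 °C (median log2 0.85), 14 higher and 0 lower at 24 h (median 0.67) and 10 higher and 0 lower at 7 d (median 0.58), against all-gene medians of -0.01, -0.05 and -0.01 in the deposited tables. Lpl, which releases fatty acids from blood lipids, averaged 2452, 3027 and 2240 RPKM in KO fat at 22 °C, 24 h and 7 d, against 665.3, 1238 and 773.8 RPKM in Control fat, and Cidec, which enlarges lipid droplets, was 4.31, 2.51 and 3.05-fold higher. The gene lower at 22 °C was Gpd1, a glycerol phosphate dehydrogenase (3.30-fold in the deposited table). Of 18 white fat-selective genes with a value, 9 were higher and 0 lower in KO fat at 22 °C, 8 higher and 1 lower at 24 h and 4 higher and 1 lower at 7 d, with medians of 0.72, 0.58 and 0.32. Fabp4, a fatty acid carrier, was 2.36, 2.13 and 2.19-fold higher in the deposited tables, and it stands in both lists together with Lep, Retn and Adipoq. Fabp4 and Adipoq were also abundant in Control brown fat at 22 °C (8202 and 840.3 RPKM). Calls in the white fat list therefore do not by themselves mark a white fat identity. In recovery at 24 h against 22 °C, the C/EBP list had 4 genes higher and 9 lower in KO fat and 6 higher and 4 lower in Control fat, and the white fat list had 3 higher and 7 lower in KO fat and 3 higher and 2 lower in Control fat.

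**Figure D4:**
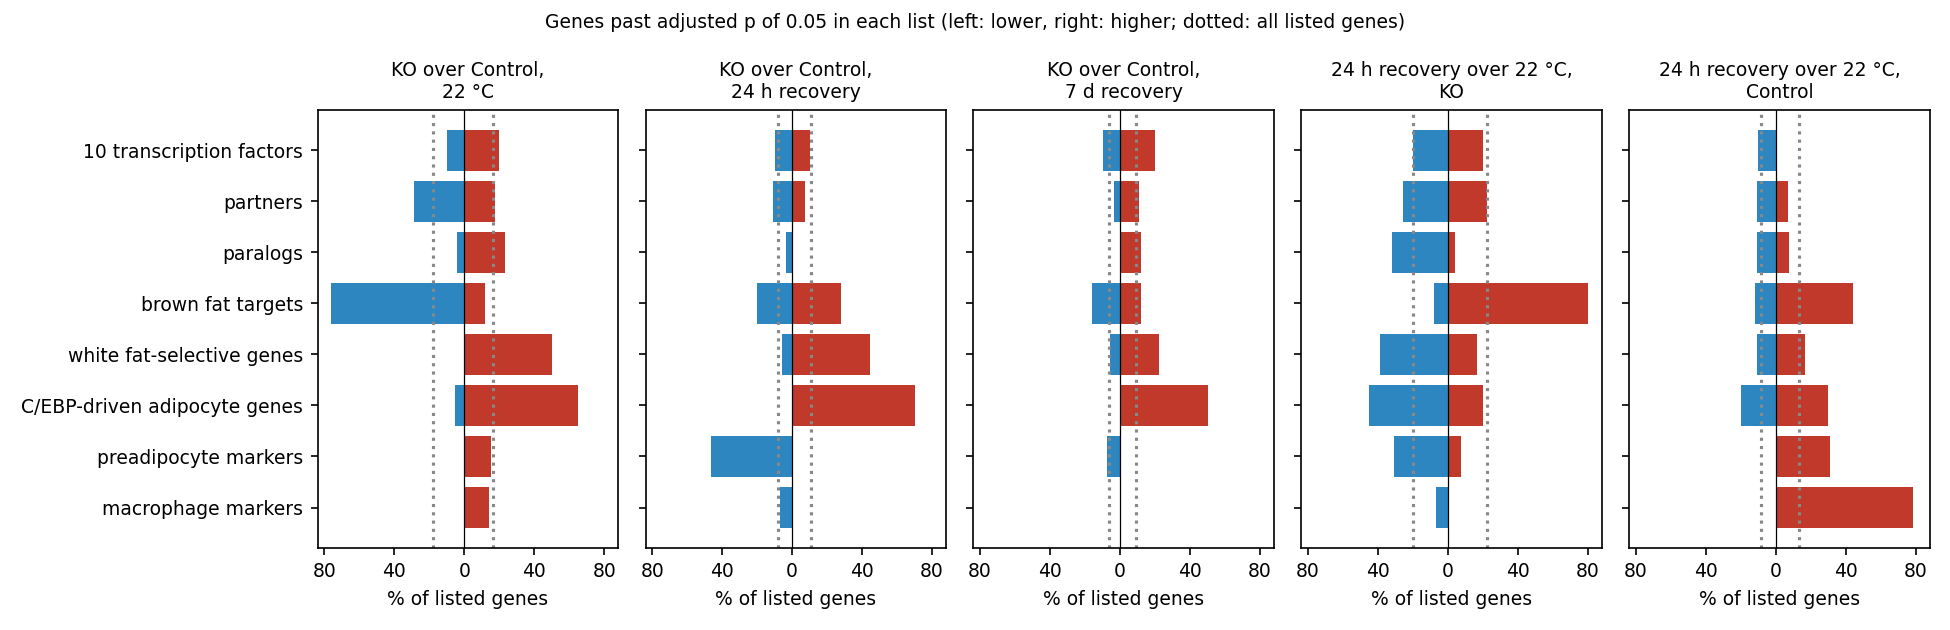
Share of listed genes past an adjusted p of 0.05 (horizontal axis, percent of the genes with a value) in the 10 factors and 7 gene lists, lower to the left in blue and higher to the right in red, for each deposited table; dotted lines give the shares over all listed genes. At 22 °C the brown fat genes lie to the left (19 of 25 lower) and the C/EBP-driven genes to the right (13 of 20 higher), while the 10 factors are close to the dotted lines.

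Muscle genes were set beside Prdm16, which restrains the muscle programme. Of 20 such genes, Myf5, Myod1, Myog, Pax3 and Pax7, the early muscle regulators, had no value here, and none of the other 15 was called in any deposited table. The 14 with a value in every group summed to 160.6, 153.1 and 772.4 RPKM in KO fat at 22 °C, 24 h and 7 d, against 160.8, 272.6 and 921.4 RPKM in Control fat, so the sum was higher at 7 d in both genotypes. No deposited table sets 7 d against 22 °C or 24 h, so the lack of calls does not bear on this rise. What raised the sum, and whether Prdm16 had a part in it, was not tested. Endothelial markers summed to 211.4, 187.8 and 191.5 RPKM in KO fat and 227.2, 223.4 and 190.0 RPKM in Control fat, with 1, 0 and 1 of 10 higher and 0, 2 and 0 lower in KO fat at the 3 times in the deposited tables. Of 10 Schwann and neuronal markers, the 3 with a value in every group summed to 9.83, 9.38 and 7.71 RPKM in KO fat and 7.54, 8.02 and 8.29 RPKM in Control fat, with at most 1 called in a table. In recovery at 24 h against 22 °C, 1 endothelial marker was higher and 2 lower in KO fat, and 2 were higher and 0 lower in Control fat, in the deposited tables. The part of these cells in the members' values was not tested.

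The genes nearest to a member over the 5 deposited log2 fold changes were sought among 10625 genes, for the members called in at least 2 tables. Distances are Euclidean, in log2 units, and the 5 tables share groups. Ebf2 had close neighbours: Pts (0.089), Hddc2 (0.17) and Abcb10 (0.22). Cebpa was nearest to Zcwpw1 (0.23), Plcd3 (0.24) and Ciart (0.28), and Cebpb to Zfp770 (0.26), Mrpl45 (0.30) and Ahsa1 (0.33). Irf4 had none as close, with Phkg1 at 1.22, Atf3 at 1.25 and Fam83a at 1.34. Like Irf4, Phkg1 had a deposited log2 fold change of 3.31 for KO over Control at 22 °C and -2.18 for 24 h over 22 °C in KO fat.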

How the data were processed

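Ribosomal RNA was depleted and libraries were made with a TruSeq RNA v2 kit, per the labels' protocols. The submitters' processing notes name STAR, featureCounts, edgeR and mm9. The authors deposited 5 comparison tables, whose columns are the log2 fold change, the p-value with its adjusted value, the average log2 CPM and group means without a stated unit. These deposited means were read as RPKM because, with gene length, they tracked the deposited log2 CPM at a steady distance (median -0.51, quartiles -0.54 and -0.50). The authors' adjustment covered 13414 genes. The tables hold no library values, which barred the planned count test, and calls are those of the authors' adjusted p. Differences of KO effects used errors rebuilt from p up to 0.9 (Python 3.11.15, scipy 1.17.1, pandas 2.3.3, numpy 2.4.6), and this step was tested on simulated data. Ratios at 7 d were centred on the all-gene median. The factors and 11 gene lists were chosen with earlier results of these data known. Named genes were the 10 factors, Hdac3, the up to 4 list genes of smallest p per table, and the 3 nearest genes. Further relatives and partners (Ebf1, Ebf3, Irf3, Irf5, Irf7, Irf8, Irf9, Nfib, Cebpd, Ddit3, Pparg, Ppargc1a) were named after their values were seen, and some genes of the rule are left out. Promoter windows come from RefSeq. Figures were drawn with matplotlib 3.10.9. Alternatives are in the closing section.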

Additional observations from a re-analysis of the deposited data

Results flagged for a closer look

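Each of these results was picked out because the KO effect after cold differed from the KO effect at 22 °C in a test of the difference itself, with adjustment over all genes. For Irf4 the KO over Control log2 fold change was -0.53 at 24 h and 3.44 at 22 °C, a difference of -3.97 (adjusted p = 2.0e-05). At 7 d it was 0.57, and the difference from 22 °C was -2.86 (adjusted p = 0.0047). For Cebpb the KO over Control log2 fold change was 0.85 at 7 d and -0.18 at 22 °C, a difference of 1.03 (adjusted p = 0.0026). For Hdac3, the deleted gene, it was -1.93 at 24 h and -1.37 at 22 °C, a difference of -0.56 (adjusted p = 0.0324), so the measured loss of Hdac3 RNA was itself deeper at 24 h than at 22 °C. At 7 d the Hdac3 difference was -0.34 (adjusted p = 0.290).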

How the results depend on the processing

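No paired analysis was possible because the tables hold no value per library, and leaving out a replicate was not run for the same reason. Of 493 values of single genes under alternative settings, 479 kept their direction and their side of the threshold, 6 reversed, 7 were no longer called and 1 became called. The 6 reversals were all of values near 0. With ratios of means without centring, Lhx8 gave -0.022 at 22 °C and Tbx15 -0.0023 at 24 h for KO over Control, Zic1 gave -0.098 for Control recovery and Prdm16 gave 0.010 for KO recovery. With the all-gene median subtracted, Zfp516 gave 0.050 for KO over Control at 24 h and Zic1 gave -0.0045 for Control recovery. The means leave out the authors' normalization factors, which shifts a ratio of means by a median of -0.24 at 22 °C and -0.14 at 24 h against the deposited KO over Control fold change. Counts of called genes over all genes depended on the rule. At an adjusted p of 0.01 they were 1405 for KO over Control at 24 h, 1205 at 7 d, 1711 for Control recovery, 1242 for the difference of KO effects at 24 h and 983 at 7 d. With at least 1.5-fold asked for, they were 1409, 1172 and 1701 for the first 3. Under the rule of the tables' own status column (0.01 and 1.5-fold, chosen after seeing the data) they were 2661 at 22 °C, 1065 at 24 h, 911 at 7 d, 1287 for Control recovery and 3281 for KO recovery. For KO recovery, 2 of the 10 factors were called at 0.01 and 2 by the status rule, where Ebf2 and Lhx8 were lost. With a t distribution of 18 degrees of freedom, 2 were called for the difference of KO effects at 24 h, Irf4 and Ebf2. The t distribution also entered the rebuilt errors and made them smaller. Nothing here measures the spread between libraries directly, and what sets the wide errors of Zic1, Lhx8, Tbx15 and Irf4 was not tested.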
